A study of Mus musculus with 10 samples.

Results

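Among 1699 mouse embryoid body cells in which the histone methyltransferases MLL3 and MLL4 had lost their catalytic activity (Mll3/4 dCD, here dCD), 513 cells carried at least 1 transcript of Stra8, a gene of meiotic entry that is normally kept silent outside the germline. These 513 cells were selected on that count, at 1 or more unique molecular identifiers (UMIs, each standing for 1 captured RNA molecule), and were compared with the 1186 dCD cells at 0. Both sides were split by Zfp42 (Rex1), a marker of naive pluripotency: 220 Stra8 cells had 3 or more Zfp42 UMIs (Zfp42-high) and 293 had fewer (Zfp42-low), against 237 and 949 of the other dCD cells. The values of Stra8 and Zfp42 chose the cells, so both genes are given as a description only and were left out of every comparison of genes and of the clustering.

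The study followed the making of primordial germ cell-like cells (PGCLC) from mouse embryonic stem cells (ESC) and asked what H3K4me1 at enhancers adds to germline competence. Epiblast-like cells (EpiLC) at d2 were aggregated into embryoid bodies (EB) with BMP4, SCF, LIF and EGF, and single cells were profiled at d4 by droplet-based 3′ RNA sequencing. The controls were R1 wild-type (WT) cells, and the dCD line was derived from the same R1 ESC, so both share the R1 background and received the same growth factors. The dCD cells came from 1 mutant line in which both proteins are still made, and the strain label of either sample reads R1 WT.

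Each condition had 1 library, with 1416 WT cells (20586629 UMIs, a median of 13187.5 per cell) and 1699 dCD cells (22887974 UMIs, a median of 11751 per cell), and 0 cell barcodes were shared between them. With 1 library per condition genotype cannot be told apart from library, so conditions were compared without a test, and no p-value was made from cells. Levels are counts per 1000000 (CPM): the UMIs of a gene summed over a group of cells and scaled to a total of 1000000 UMIs for that group. All intervals are at 95% and cover counting error only, not the spread between cells, cultures or libraries. Kmt2c and Kmt2d, which encode MLL3 and MLL4, were read at 75.7 and 22.1 CPM in Zfp42-high Stra8 cells, 76.4 and 23.95 CPM in the other Zfp42-high dCD cells, and 85.9 and 24.3 CPM in Zfp42-high WT cells. As the dCD alleles change the catalytic domains and keep the protein, these levels do not check the genotype.

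As background, Stra8 stands for stimulated by retinoic acid gene 8: in germ cells, retinoic acid and a loss of repression by DNA methylation and by a Polycomb complex named PRC1.6 allow it to be transcribed, and its protein then switches on genes of meiotic prophase. In somatic cells the same repressors also hold down a set of germline genes with E-box or E2F sites near their start. Zfp42 is high in naive ESC, falls as cells leave naive pluripotency, and is made again in early germ cells.

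Stra8 lies at chr6:34920163-34939344 on the plus strand (GRCm38, GENCODE M21), with 16 distinct exon intervals over its annotated transcripts. In the 250 bases before its RefSeq start, the letters AGGTCA, the core motif of nuclear receptors such as the retinoic acid receptors, occurred 194 and 38 bases before the start. A longer gene model has an exon over these bases, so only the 30 bases around each match are shown, with the match in capitals (RefSeq, GRCm38.p6).
Stra8, chr6:34920742-34920771, plus strand: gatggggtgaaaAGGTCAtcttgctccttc
Stra8, chr6:34920898-34920927, plus strand: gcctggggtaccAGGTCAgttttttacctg
A pair of germline genes that were detected in the same cells is shown for other motifs. Sycp3, which encodes a protein of the axial elements of meiotic chromosomes, had AGGTCA 213 bases before its start and the E-box CACGTG 64 and 43 bases before it. Tuba3a, a testis alpha-tubulin, had TTCCCGCC, a site of E2F proteins, 120 bases before its start.
Sycp3, chr10:88459337-88459568, plus strand: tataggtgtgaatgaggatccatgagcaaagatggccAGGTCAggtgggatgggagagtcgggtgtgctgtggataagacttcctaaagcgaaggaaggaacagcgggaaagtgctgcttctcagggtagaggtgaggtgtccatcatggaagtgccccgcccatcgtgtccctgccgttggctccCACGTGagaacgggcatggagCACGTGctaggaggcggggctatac
Tuba3a, chr6:125286183-125286212, minus strand: actccagagccTTCCCGCCaaagccacatc
On either strand, AGGTCA was found in 14.02% of 32851 promoter windows of this length, CACGTG in 6.02% and TTCCCGCC in 1.86%. Of 53 genes on the germline and meiosis lists used here, 44 had a sequence, and 7, 16 and 8 of them held the motifs in that order (15.9%, 36.4% and 18.2%). A match is a description of the letters and not a measured binding site.

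Stra8 was read from 513 of 1699 dCD cells (30.2%, interval 28.0 to 32.4) and from 5 of 1416 WT cells (0.353%, 0.115 to 0.822). The dCD library held 1837 Stra8 UMIs, or 80.3 CPM (76.6 to 84.0), and the WT library 5, or 0.243 CPM (0.0789 to 0.567). All 5 WT cells were Zfp42-high. Most dCD members carried several molecules: 157 had 1 UMI, 218 had 2 to 4, 138 had 5 or more, and the highest had 18. The median was 2 UMIs in both Zfp42 classes. After every cell was thinned to 6831 UMIs, 367 of 1529 dCD cells (24.0%) and 1 of 1366 WT cells (0.0732%) still had Stra8.

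At the edge of the rule, the 157 cells with 1 Stra8 UMI had a median of 12104 UMIs in all, against 11496.5 in the 1186 cells with 0. Of the 66 dCD cells at 3 Zfp42 UMIs 34 had Stra8 (51.5%), and of the 89 cells at 2 Zfp42 UMIs 43 had it (48.3%). The share of dCD cells with Stra8 was 15.7% at 0 Zfp42 UMIs and 45.5% at 1 UMI. From there up to 21 or more UMIs it stayed between 44.9% and 55.9%, so the step lay between 0 and 1 Zfp42 UMI and not at the cut of 3.

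**Figure D1:**
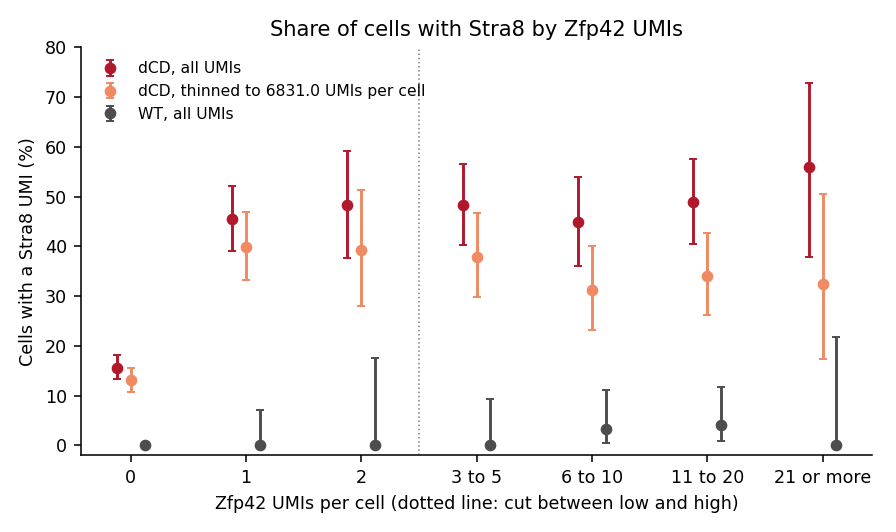
Share of cells with a Stra8 UMI (y axis, percent) in bins of Zfp42 UMIs per cell (x axis) for dCD cells with all UMIs, dCD cells after thinning (binned by their unthinned Zfp42 UMIs) and WT cells, with exact 95% intervals. In dCD cells the share is 15.7% at 0 Zfp42 UMIs and between 44.9% and 55.9% in every other bin, while no WT bin is above 4.17%.

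As a class, Zfp42-high dCD cells held Stra8 more often (220 of 457, 48.1%) than Zfp42-low dCD cells (293 of 1242, 23.6%). They were also deeper, with medians of 15299 and 10985.5 UMIs, and at 1 depth the shares were 34.3% and 19.9%. In CPM, Stra8 stood at 105 in Zfp42-high and 67.5 in Zfp42-low cells, a ratio of 1.56 (1.42 to 1.71). Among the Stra8 cells themselves the order turned: 300 CPM in the Zfp42-low members and 206 CPM in the Zfp42-high members, a ratio of 1.46 (1.33 to 1.599). Both were chosen at 1 or more Stra8 UMIs and had a median of 2, at median depths of 10664 UMIs (Zfp42-low) and 16329.5 UMIs (Zfp42-high). The same Stra8 UMIs give a higher CPM in a shallower cell, so this order cannot be told apart from selection and depth. These ratios describe the genes that the rule used.

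The Stra8 cells sat in few places of the map of all cells. WT and dCD cells were clustered together into 11 clusters without Stra8 and Zfp42, and 494 of 513 Stra8 cells (96.3%) lay in 3 of them. Cluster 1 held 227, cluster 3 held 249 and cluster 8 held 18. In cluster 1, led among dCD cells by Fam25c, Tcl1, Morc1, Gpa33 and Mobp, 227 of 466 dCD cells had Stra8 (48.7%, 44.1 to 53.4). Its 14 naive pluripotency genes had a median log2 ratio of 2.89 over the other dCD cells. In cluster 3, led by Coch, Gm9112, Pim2, H2-Q7 and Gm16233, 249 of 455 dCD cells had it (54.7%, 50.0 to 59.4), and only 6 WT cells were in that cluster. Cluster 8 held 43 dCD and 0 WT cells and was led by Gm21761, Gm8300, Gm12794, Gm5662 and Gm5039. Zscan4d, a gene of the 2-cell embryo, ranked next, and 18 of the 43 cells had Stra8 (41.9%, 27.0 to 57.9).

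The remaining clusters give the background. In cluster 2, whose leading genes included Tlx2, Six2, Nkx2-5 and Hey1, 4 of 455 dCD cells had a Stra8 UMI (0.879%, 0.240 to 2.24) at a median of 10108 UMIs, against 54.7% at 11109 UMIs in cluster 3. In cluster 5 it was 12 of 145 (8.28%) and in cluster 0 it was 2 of 111 (1.80%). The shares in clusters 1, 3 and 8 thus lay above that of cluster 2 by far more than counting error, at similar or greater depth except in cluster 8 (a median of 9620 UMIs).

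**Figure D2:**
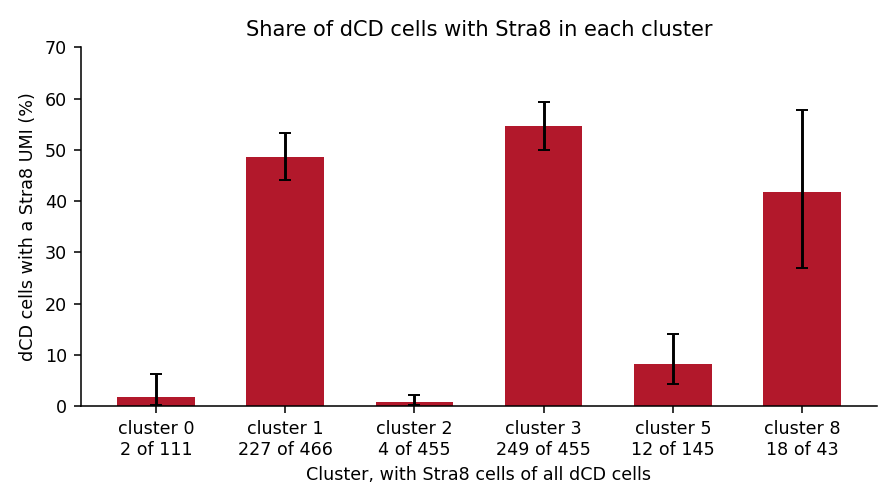
Percent of dCD cells with a Stra8 UMI (y axis) in the 6 clusters with at least 40 dCD cells (x axis, with the number of Stra8 cells of all dCD cells), with exact 95% intervals. Clusters 1, 3 and 8 stand at 48.7%, 54.7% and 41.9%, and clusters 0, 2 and 5 at 8.28% or less.

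Within a cluster the share was similar in both Zfp42 classes. In cluster 1, 189 of 394 Zfp42-high cells (48.0%, 42.9 to 53.0) and 38 of 72 Zfp42-low cells (52.8%, 40.7 to 64.7) had Stra8. In cluster 3 it was 26 of 46 (56.5%, 41.1 to 71.1) and 223 of 409 (54.5%, 49.6 to 59.4). The intervals overlap in both clusters. The 2 classes differed in where their cells lay: 85.9% of Zfp42-high Stra8 cells were in cluster 1, as were 86.5% of the other Zfp42-high dCD cells. Of the Zfp42-low Stra8 cells 76.1% were in cluster 3, but only 19.6% of the other Zfp42-low dCD cells. For that reason each comparison of genes is given for the whole class and then within the cluster that holds most of its members.

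Zfp42-high Stra8 cells were close to the other Zfp42-high dCD cells in their pluripotency genes. The comparison took in the 7361 genes whose UMIs over both groups came to 100 or more, on a log2 scale with 1 CPM added. In the Stra8 cells 9 of them reached 2-fold higher (0.122%) and 35 reached 2-fold lower (0.475%). The Stra8 cells were the deeper ones, at medians of 16329.5 and 14167 UMIs, and at 1 depth the counts were 1 and 6. With 300 or more UMIs per gene they were 1 and 14. Both settings left fewer genes to compare, so these counts are not out of 7361. Nanog stood at 253 CPM in Stra8 cells and 259 CPM in the others, Pou5f1 (Oct4) at 549 and 577 CPM, and Sox2 at 443 and 392 CPM. Of 12 core pluripotency genes none was 2-fold apart, and their median log2 ratio was -0.05 beside 0.03 for all genes. Of 14 naive genes 1 was 2-fold lower, Dppa3, and the median was -0.02. Tbx3, a naive factor, was 271 CPM against 167 CPM, a ratio of 1.62 (1.47 to 1.79), and Tfcp2l1 was 157 against 110 CPM (1.43, 1.26 to 1.62).

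The highest ratios in Zfp42-high Stra8 cells belonged to Gm21761, Cidea, Shisa8, 1700013H16Rik, Bdh2, Dmrt1, Borcs7, Tgfbi and Dpp4, with A2m just under 2-fold. Dmrt1, a transcription factor of germ cells and gonads, was 56.9 CPM in the Stra8 cells and 24.2 CPM in the others, a ratio of 2.35 (1.83 to 3.03). Its UMIs were spread over 123 of 220 Stra8 cells and 65 of 237 others. Cidea, a lipid droplet protein, was 21.9 against 6.12 CPM (3.57, 2.23 to 5.93), and Tgfbi, a protein of the extracellular matrix, 26.2 against 12.0 CPM (2.19, 1.52 to 3.17). The transcript 1700013H16Rik was 51.1 against 16.8 CPM (3.05, 2.29 to 4.11). Gm21761 was carried by very few cells, with 124 of its 126 UMIs in 5 of the Stra8 cells, and it is the leading gene of cluster 8. Within cluster 1 it stood at 1.47 CPM in Stra8 cells.

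The lowest ratios belonged to Krt18, Cryab, Tagln, Krt8, Dppa3, Hand1, Ina, Rhox6, Calml4 and Tnfrsf12a. Krt18 and Krt8, keratins of simple epithelia, were 24.1 against 177 CPM and 36.8 against 160 CPM. Of the 665 Krt18 UMIs of the other Zfp42-high cells 548 lay in 5 cells, and inside cluster 1 the direction turned, with 20.8 CPM in Stra8 cells and 12.1 CPM in the others. Krt8 turned there as well, at 32.9 against 17.45 CPM. Hand1, a factor of extraembryonic mesoderm and trophoblast, was 5.84 against 22.9 CPM, with 66 of 86 UMIs of the others in 5 cells, and 6.46 against 8.57 CPM inside cluster 1. Dppa3, a naive and germ cell gene, was 16.8 against 68.4 CPM (ratio 0.245, 0.184 to 0.323), and 16.7 against 81.5 CPM inside cluster 1. It was read from 27 of 220 Stra8 cells and 44 of 237 others.

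Inside cluster 1, 189 Zfp42-high Stra8 cells were set against 205 others. Of 6789 genes, 11 were 2-fold higher (0.162%) and 19 were 2-fold lower (0.280%). The higher side was led by Cidea, Shisa8, Tgfbi, Dmrt1 and 1700013H16Rik, and the lower side by Dppa3, Ina, Calml4, Rhox6 and Castor1. Dmrt1 stood at 61.1 against 25.1 CPM (2.44, 1.87 to 3.20). Rhox6 and Rhox9, neighbouring X-linked homeobox genes of the placenta and germline whose near-identical sequences make the split of reads between them uncertain, were 43.5 against 138 CPM and 52.8 against 133 CPM. Ina, an intermediate filament protein, was 15.3 against 65.7 CPM. In this cluster the core pluripotency genes stayed within 2-fold, for example Tdgf1 at 585 against 567 CPM and Utf1 at 344 against 385 CPM.

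Zfp42-low Stra8 cells differed far more from the other cells of their class. Past 2-fold, 247 of 9768 genes were higher (2.53%) and 753 were lower (7.71%). At 1 depth 148 were higher and 593 lower, and with 300 or more UMIs per gene 91 were higher and 420 lower, each out of fewer genes. Among the genes with the lowest ratios were S100g, Ctla2a, Frzb, Plac1 and Rbms3, the smooth muscle genes Acta2 and Tagln, and the matrix genes Col1a1 and Thbs1. Kdr, a receptor of endothelium and its precursors, had 0 UMIs in the Stra8 cells and 151 in the others (12.8 CPM), at least 14.6-fold lower with 3 counts as the limit over the group. Hand1 was 37.4 CPM in Stra8 cells against 301 CPM in the others (ratio 0.124, 0.103 to 0.148). Of the 10 extraembryonic mesoderm genes 8 passed the filter, all 8 were 2-fold lower, and the median log2 ratio was -2.82 beside -0.04 for all genes. The summed level of that list was 116 CPM in the Stra8 cells and 818 CPM in the others, and Col3a1 had 0 UMIs in the Stra8 cells. As 949 other cells lie in many clusters, this contrast sets 1 kind of cell mostly against several, and its part in the values below was not tested except by staying inside 1 cluster.

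The highest ratios in Zfp42-low Stra8 cells were those of Gm9112, Khdc3, Dmrt1, Mreg, Cpne5, Tuba3a, Trim47, Rhox13, Rasgrp2 and Dppa3. Dmrt1 was 52.9 CPM in Stra8 cells and 4.67 CPM in the others, a ratio of 11.3 (8.34 to 15.6), and was read from 107 of 293 against 38 of 949 cells. Rhox13, an X-linked homeobox gene of germ cells, was 44.2 against 6.79 CPM (6.50, 4.92 to 8.63). Tuba3a was 64.0 against 9.85 CPM (6.50, 5.17 to 8.21). Its near-identical copy Tuba3b and an antisense transcript at its start make its reads less certain. Gm9112 had 109 UMIs in 51 Stra8 cells and 4 UMIs in the 949 others. Khdc3, a maternal gene of the oocyte, was 33.3 against 2.55 CPM, but 71 of its 114 UMIs in Stra8 cells lay in 5 cells. Mreg rested on 1 cell with 106 of 186 UMIs, and both stand apart from Dmrt1, of whose 181 UMIs 5 cells held 25.

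**Figure D3:**
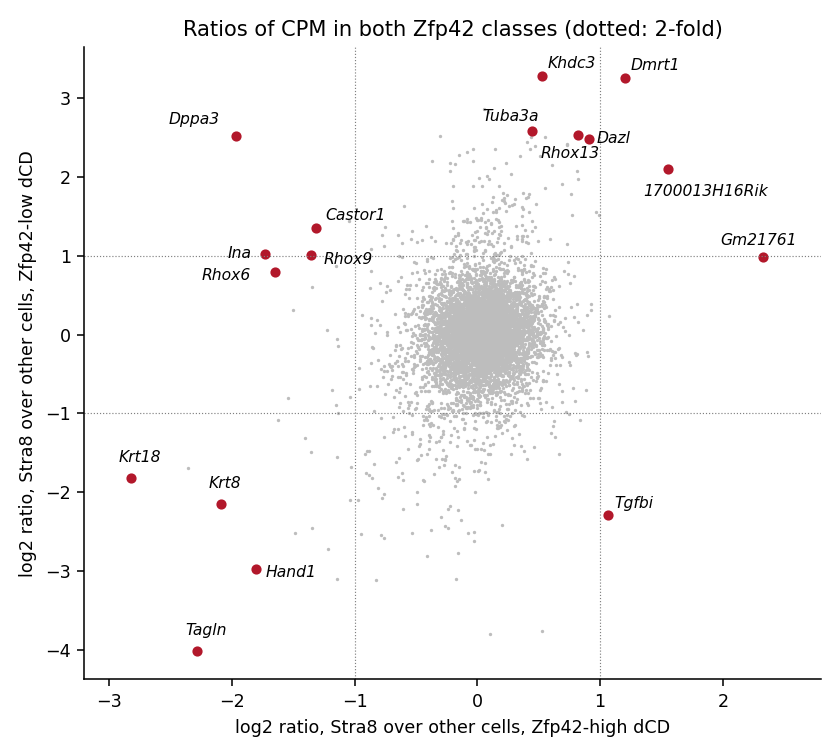
Log2 ratio of CPM (1 CPM added) of Stra8 over other dCD cells in the Zfp42-high class (x axis) and the Zfp42-low class (y axis), 1 point for each of the 7242 genes that passed the filter of 100 UMIs in both classes, with the 2-fold lines dotted. Dmrt1 (1.20 and 3.25) and 1700013H16Rik (1.55 and 2.103) are high in both, Krt18 and Tagln are low in both, and Dppa3 lies at -1.97 on the x axis and 2.52 on the y axis.

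The 2 classes hold different cells, and 7242 genes passed the filter in both. Of the 5 of these that were 2-fold higher in Zfp42-high Stra8 cells, 2 were also among the 205 that were 2-fold higher in Zfp42-low Stra8 cells, Dmrt1 and 1700013H16Rik (40% of the first list and 0.976% of the second). Of the 32 lower genes 15 were also among the 209 lower ones (46.9% and 7.18%), among them Krt8, Krt18, Tagln, Cryab and Hand1. Over the whole classes, a group of 5 went opposite ways, lower in Zfp42-high and higher in Zfp42-low Stra8 cells: Castor1, Dppa3, Ina, Rhox9 and Sfmbt2. Tgfbi went the other way, at 26.2 against 12.0 CPM in the Zfp42-high class and 20.8 against 106 CPM in the Zfp42-low class. Inside clusters 1 and 3, Dmrt1 and 1700013H16Rik were again the 2 genes 2-fold higher in both, and Sfxn1, a mitochondrial serine carrier, was among those lower in both. In cluster 3, Rhox9 (ratio 1.45, 1.22 to 1.73) and, under the filter, Dppa3 (1.83, 1.07 to 3.24) were still higher in Stra8 cells. Castor1 (1.14, 0.856 to 1.51) and Sfmbt2 (1.18, 0.996 to 1.40) differed little there. Ina was lower in both clusters (0.519, 0.344 to 0.775 in cluster 3). Tgfbi was higher in both, though under the filter in cluster 3 (2.37, 1.26 to 4.74).

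Inside cluster 3, 223 Zfp42-low Stra8 cells were set against 186 others, and the counts shrank to 30 genes higher (0.493%) and 64 lower (1.05%) of 6089. Sct (secretin) stood first with 122 against 26.7 CPM (ratio 4.56, 3.44 to 6.13), followed by Cpne5, 1700013H16Rik, Fbxo2, Zdhhc2, Rhox13, Dmrt1, Ckb, Spp1 and Ptch1. Dmrt1 was 56.6 against 16.3 CPM (3.47, 2.39 to 5.15). Ckb, the brain creatine kinase, was 386 against 122 CPM (3.17, 2.77 to 3.64), whereas in the Zfp42-high class it was 425 against 450 CPM. Hand1 was 13.9 against 12.7 CPM, so the low mesoderm genes of the whole class were not seen inside this cluster.

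The genes lower in cluster 3 were led by Car4, Zic2, Pou3f1, Car2 and Gm16233. Pou3f1 (Oct6), a factor of formative and primed epiblast, was 5.94 against 57.5 CPM (0.103, 0.0561 to 0.177), and Zic2 was 3.96 against 44.8 CPM. The epiblast enzyme Dnmt3b was 62.9 against 149 CPM and Utf1 was 120 against 312 CPM. Pou5f1 was 275 against 484 CPM (0.568, 0.515 to 0.625) and Nanog 61.7 against 110 CPM (0.563, 0.458 to 0.692). The median of the 12 core pluripotency genes was -0.65 inside cluster 3, beside 0.89 over the whole Zfp42-low class, so its direction turned with the choice of comparison cells. The naive list went the other way inside cluster 3: of 14 genes 6 passed, 5 of them above 0 and 1, Spp1, past 2-fold, with a median of 0.57 and a sum of 514 against 345.5 CPM. Klf2, a naive factor, was 110.0 against 54.8 CPM (2.01, 1.62 to 2.51), which falls just short of 2-fold once 1 CPM is added.

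Other germline genes were read in Stra8 cells of both classes. They were also read in dCD cells without Stra8, in the Zfp42-high class and in the Zfp42-low cells of cluster 3. On a list of 27 germline genes that somatic cells silence, 14 passed the filter in the Zfp42-low class. Of these, 12 were 2-fold higher in Stra8 cells, with a median log2 ratio of 1.68 against -0.04 over all genes, where 2.53% of all genes were that much higher. In the Zfp42-high class 0 of 11 were 2-fold apart, with a median of 0.36. Inside cluster 3, 2 of the 7 that passed were 2-fold higher, beside 0.493% of all genes, with a median of 0.34. The list summed to 506 CPM (484 to 529) in Zfp42-high Stra8 cells, 392 CPM (372 to 413) in the other Zfp42-high dCD cells and 147 CPM (134 to 161) in Zfp42-high WT cells. In the Zfp42-low cells it was 483 CPM (460 to 507) with Stra8, 134 CPM (127 to 141) without, and 26.4 CPM (24.1 to 28.9) in WT. For the Zfp42-low cells of cluster 3 alone, it was 453 CPM with Stra8 and 311 CPM without, and dCD cells of cluster 2 were at 44.3 CPM.

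Dazl, an RNA-binding protein needed in germ cells, was 53.4 CPM in Zfp42-high Stra8 cells, 27.9 CPM in the other Zfp42-high dCD cells and 16.1 CPM in Zfp42-high WT cells. In Zfp42-low cells it was 56.4, 9.34 and 0.287 CPM. At 1 depth, 21% of Zfp42-high and 23.2% of Zfp42-low Stra8 cells had a Dazl UMI, against 13.5% and 4.19% of the others, and 0 of 401 cells of cluster 2, which allows a share of up to 0.748%. Tuba3a was 110 CPM in Zfp42-high Stra8 cells and 80.9 CPM in the others but 4.10 CPM in Zfp42-high WT cells. Rpl10l, a testis copy of a ribosomal protein gene whose reads may be shared with its parent, was 50.8, 34.3 and 12.9 CPM in the same order. These dCD cells without a Stra8 UMI thus also carried germline transcripts, and at these depths a cell at 0 may still have transcribed Stra8.

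**Figure D4:**
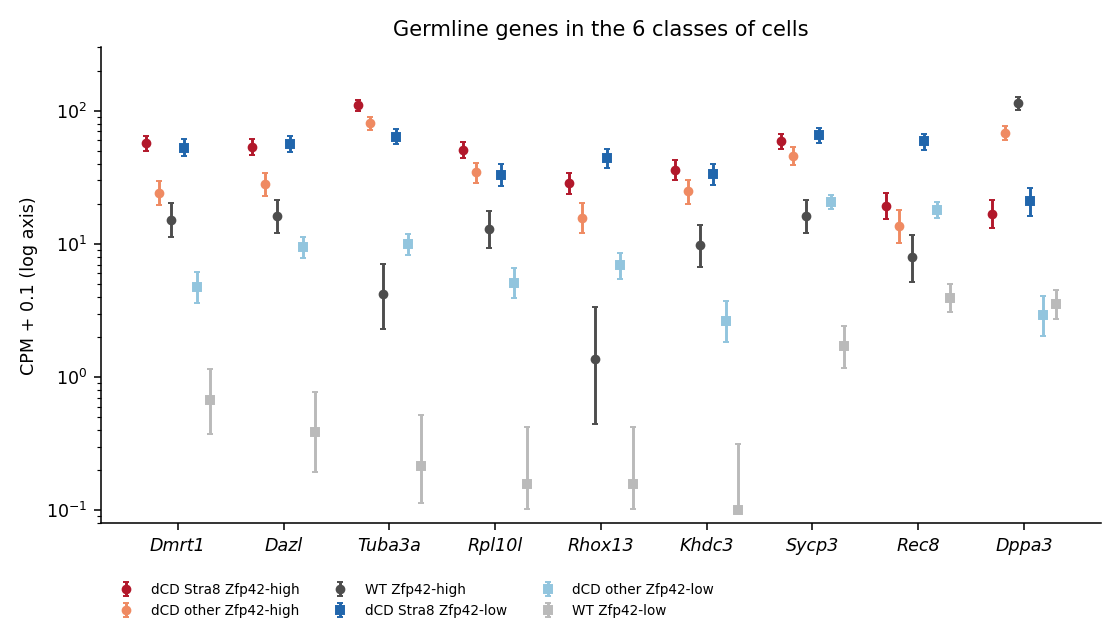
CPM plus 0.1 (log axis) of 9 germline genes in the 6 classes of cells, each point with its exact 95% counting interval. Dmrt1, Dazl, Tuba3a, Rpl10l, Rhox13, Khdc3, Sycp3 and Rec8 are higher in both classes of dCD Stra8 cells than in WT cells of the same Zfp42 class, and Dppa3 is highest in Zfp42-high WT cells at 114 CPM.

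Meiosis genes were read at low levels. Of 30 listed genes 29 were in the table and 10 passed the filter in the Zfp42-low class, 6 of them 2-fold higher in Stra8 cells, with a median log2 ratio of 1.08 beside -0.04 for all genes, of which 2.53% were that much higher. Rec8, the meiotic cohesin subunit, was 58.8 CPM in Zfp42-low Stra8 cells and 17.9 CPM in the others (3.28, 2.69 to 4.00), but 18.3 CPM in cluster 2, where Stra8 was at background. Sycp3 was 65.2 against 20.6 CPM (3.16, 2.62 to 3.81) and Syce1, of the synaptonemal central element, 26.6 against 7.22 CPM. In the Zfp42-high class 8 passed and none was 2-fold apart, with Sycp3 at 59.2 against 45.8 CPM (1.29, 1.06 to 1.58). Inside cluster 3, 5 passed and 1 was 2-fold higher, beside 0.493% of all genes. It was Rec8, at 70.8 against 33.1 CPM (2.14, 1.62 to 2.85). Sycp3 was 68.1 against 62.0 CPM there (1.10, 0.871 to 1.38), and the list median was 0.14. Of the 29 genes, 3 had 0 UMIs in the Zfp42-high and 5 in the Zfp42-low Stra8 cells. Sycp1, of the transverse filaments of the synaptonemal complex, was 3.30 and 7.31 CPM in the Zfp42-high and Zfp42-low Stra8 cells.

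Over the whole Zfp42-low class, target genes of retinoic acid were lower in Stra8 cells than in the others, and most of its receptors were not. Cyp26a1, which degrades retinoic acid and is among its most responsive targets, had 1 UMI in each class of Stra8 cells (0.254 and 0.292 CPM), below the limit of 3 counts in each. Dhrs3 was at 1.02 and 2.05 CPM. Of 12 target genes 5 passed in the Zfp42-low class, and 4 of these were 2-fold lower in Stra8 cells while none was 2-fold higher, with a median log2 ratio of -2.18 beside -0.04 for all genes, of which 7.71% were that much lower. Rarb, a receptor that is itself a target, was 2.63 CPM against 15.5 CPM (0.170, 0.0766 to 0.330), and Meis2 was 17.55 against 158 CPM. Inside cluster 3 these differences were smaller, with Meis2 at a log2 ratio of -1.02. In the Zfp42-high class Meis2 (15.5 against 17.6 CPM) and Nrip1 (23.9 against 27.9 CPM) were the only targets that passed, and neither was 2-fold apart. The whole list summed to 68.6 CPM in Zfp42-high Stra8 cells against 66.5 CPM in the others. Inside cluster 1 only Nrip1 passed (ratio 1.27, 0.873 to 1.86), and the list summed to 64.3 CPM in Stra8 cells against 47.3 CPM. The receptors Rara and Rarg were present in Zfp42-high Stra8 cells at 37.4 and 38.4 CPM, close to the 38.6 and 36.5 CPM of the other cells. Of 5 receptors that passed in the Zfp42-low class 4 were above 0 and 1, Rarb, was 2-fold lower, with a median of 0.26. Of 6 genes of retinoid supply and binding 2 were above 0 and 2, Crabp1 and Rdh10, were 2-fold lower. The enzyme Aldh1a2, which makes retinoic acid, was at 0.254 and 0.877 CPM in the Stra8 cells.

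Transcripts of the known repressors of germline genes differed little between Stra8 cells and others. Of 18 genes of PRC1.6 and H3K9 methylation 17 passed in the Zfp42-high class and none was 2-fold apart, with a median of 0.07. In the Zfp42-low class all 18 passed, and 1 was 2-fold lower, Yaf2, at 37.4 against 85.9 CPM. Mga, the DNA-binding scaffold of PRC1.6, was 142 against 119 CPM in Zfp42-high and 114 against 117 CPM in Zfp42-low cells, and Setdb1, an H3K9 methyltransferase, 72.4 against 67.1 CPM and 57.0 against 55.5 CPM. Of the DNA methylation and TET genes 8 passed in the first class and 7 in the second, and none was 2-fold apart. Within clusters 1 was 2-fold lower in each, Dnmt3l in cluster 1 (23.5 against 49.2 CPM) and Dnmt3b in cluster 3. Dnmt3l, a cofactor of de novo methylation, was 21.9 against 43.9 CPM in the whole Zfp42-high class (0.498, 0.379 to 0.650). That falls just short of 2-fold once 1 CPM is added, as in the counts above. Dnmt1 was 202 against 208 CPM in that class.

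Markers of primordial germ cells were lower in the Zfp42-high members than in Zfp42-high WT cells. Against these WT cells 6 of 8 listed genes passed, all below 0 and 3 of them 2-fold lower, beside 1.71% of all genes. In the paper most cells of the PGCLC cluster were WT. The 2 sides may therefore differ in their share of PGCLC, which was not tested. Of 8 listed genes 7 passed against the other dCD cells, where 1 was 2-fold lower and none higher. Nanos3 was 11.9 CPM in Stra8 cells, 18.4 CPM in the other dCD cells and 78.0 CPM in Zfp42-high WT cells. Tfap2c was 70.4, 107 and 171 CPM and Prdm1 (Blimp1) was 12.2, 20.5 and 24.6 CPM in the same order. In the Zfp42-low class 6 passed, 4 above and 2 below 0, with a median of 0.74. Dppa3 and Tfap2c (47.4 against 14.7 CPM) were 2-fold higher, Sox17 (1.755 against 12.7 CPM) was 2-fold lower, and Prdm1 was 6.14 against 9.60 CPM. Nanos3, under the filter, was 8.77 against 2.21 CPM. The list summed to 211 CPM in Zfp42-high Stra8 cells, 306 CPM in the other dCD cells and 503 CPM in WT cells.

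Several genes differed in level with the number of Stra8 UMIs. The cells with 5 or more Stra8 UMIs in cluster 1 were also the deepest, at a median of 22424 UMIs against 14167 at 0 Stra8 UMIs, and CPM divide by that depth. In Zfp42-high cells of cluster 1, Rhox6 was 138 CPM at 0, 77.9 CPM at 1, 47.2 CPM at 2 to 4 and 14.5 CPM at 5 or more Stra8 UMIs, and Rhox9 went from 133 to 28.1 CPM. In Zfp42-low cells of cluster 3, Rhox6 went the other way, at 83.8, 90.3, 153 and 160 CPM. After thinning, with cells binned by their thinned Stra8 UMIs, Rhox6 was 94.2, 54.6 and 25.6 CPM at 0, 1 and 2 or more Stra8 UMIs in cluster 1, and 86.2, 153 and 123 CPM in cluster 3. These UMIs were not spread evenly: 188 of the 551 Rhox6 UMIs of Zfp42-high cells without Stra8 came from 5 cells.

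Dmrt1 was higher from the first Stra8 UMI on, with little further difference above 2. It was 25.1, 41.7, 70.4 and 65.8 CPM over the same bins in cluster 1 and 16.3, 58.5, 59.2 and 51.7 CPM in cluster 3. Tuba3a was 90.4, 115, 105 and 126 CPM in cluster 1 and 21.7, 28.4, 43.9 and 86.1 CPM in cluster 3. Ckb was 122, 214, 378 and 524 CPM in cluster 3 and lay between 351 and 512 CPM in cluster 1. The bins within a cluster are not replicates, and the orders are given as a description.

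**Figure D5:**
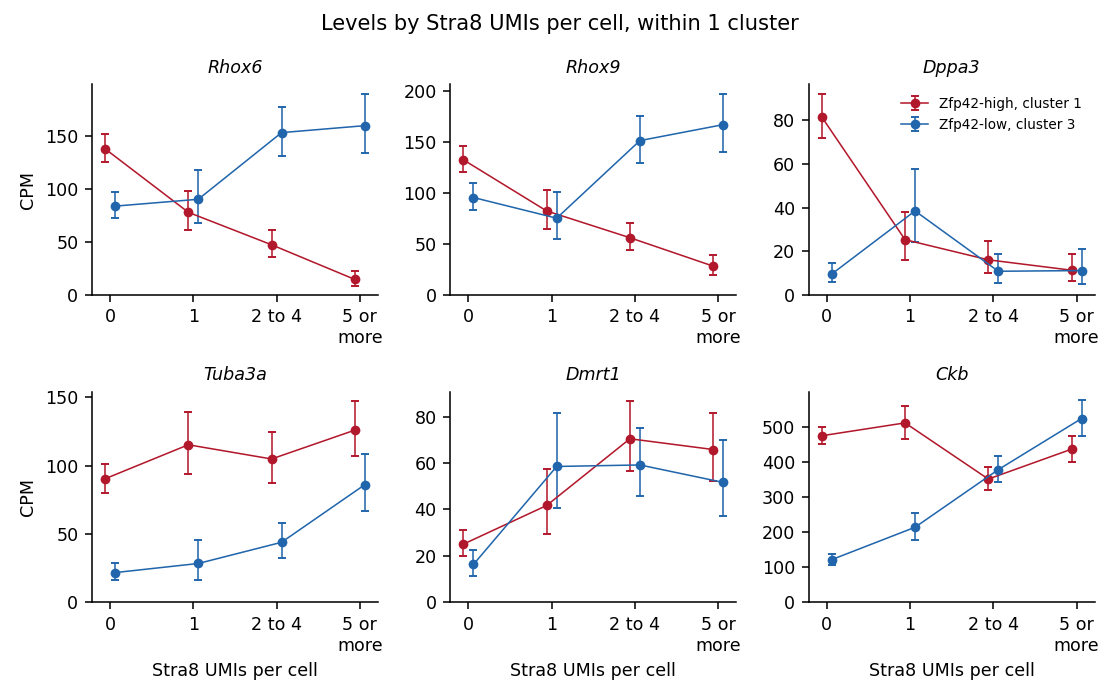
CPM of 6 genes (y axes) by Stra8 UMIs per cell (x axes) in Zfp42-high cells of cluster 1 and Zfp42-low cells of cluster 3, with exact 95% counting intervals. Rhox6 goes from 138 CPM at 0 to 14.5 CPM at 5 or more Stra8 UMIs in cluster 1 and lies between 83.8 and 160 CPM in cluster 3, while Dmrt1 is lowest at 0 Stra8 UMIs in both.

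Set against each other, the Zfp42-low and Zfp42-high members had similar levels of most germline genes and differed in pluripotency genes. Of 7432 genes, 198 were 2-fold higher (2.66%) and 209 were 2-fold lower (2.81%) in the Zfp42-low members. Of 13 naive genes that passed 11 were 2-fold lower, with a median of -1.93, and of 12 core genes 6 were, with a median of -1.0. Dppa5a was 1663 CPM in the Zfp42-low and 4232 CPM in the Zfp42-high members, and Tdh was 41.8 against 377 CPM. The Zfp42-low members were higher in Sct (95.6 against 6.35 CPM), Msx1, Igf2 and Krt18 (182 against 24.1 CPM). Of 11 germline genes 1 was 2-fold apart, with a median of -0.03 beside 0.07 for all genes.

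Against the 187 Zfp42-high WT cells, the Zfp42-high members had 253 genes 2-fold higher (3.61%) and 120 genes 2-fold lower (1.71%) of 7016. The transcript 1700013H16Rik had 201 UMIs in the members and 0 in the WT cells, at least 53.9-fold higher with 3 counts as the limit over the group. Sohlh2, a germ cell factor, was 61.2 against 2.525 CPM and Slc16a3, a lactate transporter, 74.7 against 2.84 CPM. The lower side was led by Igf2 (2.29 against 84.0 CPM), Car2, Cdkn1c, Phlda2 and Hand1. Clone, library, genotype and the mix of cell types cannot be told apart in these values.

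Technical measures of the cells were compared as well. Doublets called by Scrublet made up 1.36% of Stra8 cells and 0.337% of the other dCD cells. In the Zfp42-high class it was 1.36% with Stra8 and 1.27% without. In the Zfp42-low class it was 1.365% with Stra8 (4 of 293 cells) and 0.105% without (1 of 949). Without the called doublets the share of dCD cells with Stra8 was 29.98%, and the genes past 2-fold were 10 higher and 30 lower in Zfp42-high and 252 higher and 770 lower in Zfp42-low Stra8 cells. The mitochondrial share of UMIs was 7.63% in Zfp42-high Stra8 cells and 7.79% in the others, and 7.42% against 6.10% in the Zfp42-low class. The S phase and mitosis lists had 0 of 10 genes each past 2-fold in either class. Primitive blood genes summed to 5.34 and 7.31 CPM in the Zfp42-high and Zfp42-low Stra8 cells, and the endothelial gene Kdr had 2 UMIs in the first and 0 in the second. The part of mitochondrial RNA and of these other cell types in the results was not tested.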

How the data were processed

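Droplet-based single-cell RNA-seq of 2 libraries of R1 d4 EB, 1 WT and 1 dCD, was used. The authors deposited raw UMI counts per gene and cell, not scaled, for 32285 genes and 3115 cells, after removing cells with few expressed genes (the fewest in the table is 2006). The counting software and annotation are not given in the sources used here. The table of 8 E14Tg2a libraries was not used here, so the share of Stra8 cells was not set beside those libraries. Members, thresholds and gene lists were chosen with earlier results of these data known. Counts were summed per group of cells and divided by the group's UMIs to give CPM. For log2 ratios 1 CPM was added, and only genes whose UMIs in the pair of groups came to 100 or more were compared. Genes named are Stra8, Zfp42, Kmt2c, Kmt2d, the 10 highest and 10 lowest ratios of each class, members of the lists and the 5 leading genes of each cluster described, apart from a few not reported here. A few others were chosen after their values were seen: the genes past 2-fold in both or in opposite directions, and leading genes within a cluster or between members and WT cells. A gene that passed the filter only through the group where it is high had to differ, so counts over genes that passed are descriptions. Intervals were exact Poisson (CPM), exact conditional (ratios) and Clopper-Pearson (shares) at 95%, and a count of 0 was given the limit of 3 counts. Cells were clustered with Seurat 5.3.0 (R 4.3.3) on 2000 variable genes without Stra8 and Zfp42, 10 principal components and resolution 0.3. Doublets were called per library with Scrublet in scanpy 1.11.5 and kept. Cells were thinned without replacement to 6831 UMIs, the 10th percentile of the shallower library, which left out shallower cells (1 of 220 and 34 of 293 Stra8 cells). The ratio script was run on simulated group sums with Poisson counting error only and no spread between cells. It checks the arithmetic and cannot say how often unchanged genes pass 2-fold in these data. In the Zfp42-high comparison 177 of 177 genes simulated with a 4-fold change were recovered past 2-fold, and 0 of 7142 unchanged genes were. In the Zfp42-low comparison 198 of 198 were recovered and 2 of 9552 unchanged genes passed. Alternatives were tried for the depth, doublets, cell filter, both thresholds, averaging, pseudocount, gene filter and fold.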

Additional observations from a re-analysis of the deposited data

How the results depend on the processing

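With 1 library per condition there is no replicate to leave out, and the depth limits genes of low level most. No paired analysis was possible because each group has 1 library and the labels give no replicate numbers. Restricting cells to 1 cluster, and leaving out cluster 8, were chosen after seeing the data. The share of dCD cells with Stra8 (30.2%) was 24.0% at 1 depth, where both thresholds read the thinned UMIs, and 20.95% at 2 or more UMIs. The Stra8 ratio of Zfp42-high to Zfp42-low cells (1.56) was 1.23 at 1 depth and 2.76 with Zfp42-high at 1 or more UMIs. Genes 2-fold higher in Zfp42-high Stra8 cells (9) became 1 at 1 depth, 5 with a pseudocount of 5 CPM, 1 with 300 or more UMIs and 112 at 1.5-fold. Genes lower there (35) became 6 at 1 depth, 21 by the mean over cells, 14 with 300 or more UMIs, 160 at 1.5-fold, 168 with Zfp42-high at 1 or more UMIs and 19 within cluster 1. In Zfp42-low cells genes higher (247) became 148 at 1 depth, 158 with a pseudocount of 5 CPM, 91 with 300 or more UMIs, 736 at 1.5-fold and 30 within cluster 3. Genes lower (753) became 420 with 300 or more UMIs, 1432 at 1.5-fold and 64 within cluster 3. The settings of 1 depth, of 300 or more UMIs and of 1 cluster also left fewer genes to compare. Of the lists, the core pluripotency median in Zfp42-high cells (-0.05) was 0.0097 at 1 depth and 0.00080 with Zfp42-high at 1 or more UMIs. For extraembryonic mesoderm (-0.76) it was -2.42 with that threshold and -0.32 at 2 or more Stra8 UMIs. In Zfp42-low cells the germline median (1.68) was 2.66 with Zfp42-low at 0 UMIs. Within cluster 3 the medians were 0.34 for germline, 0.14 for meiosis (1.08 in the whole class) and -0.65 for core pluripotency (0.89). Both core pluripotency medians thus changed sign, from values inside 2-fold, and the cause was not tested. The other 140 alternative values stayed within the interval of the main value (for a list's median, a range set by the ranks of its genes, which are not replicates) or, for counts of genes, within 1.5 times of it.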
